A study of Mus musculus with 10 samples.

Results

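The genes described here carry the interferon signal from the cell surface to the nucleus: the 4 receptor chains Ifnar1, Ifnar2, Ifngr1 and Ifngr2, the signal transducers Stat2 and Irf9, the transcription factors Irf1 and Irf7, and the inhibitor Socs1. Their rows were picked by gene symbol, from a set of genes named with earlier results of these data known, and all 9 were found among the 46957 loci of the tables. RNA sequencing had been done on macrophages sorted from tumours of 4T1 cells, a mouse mammary carcinoma line (100000 cells, mammary fat pad, BALB/cJ mice). In one group of 5 samples the mice had received PBS vehicle, and in the other group of 5 samples they had received 1 mg/kg JHU083, a prodrug of the glutamine antagonist 6-diazo-5-oxo-L-norleucine, from day 7 to day 13. All tumours were taken on day 14, and viable cells positive for CD45, CD11b and F4/80 and negative for CD8, Ly6C and Ly6G were sorted. The labels do not give age, nor do they say whether a sample is 1 mouse, so the p-values measure the spread between these samples.

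Type I interferons bind a receptor made of the Ifnar1 and Ifnar2 chains, and type II interferon, interferon gamma, binds one made of Ifngr1 and Ifngr2. Janus kinases attached to the chains then phosphorylate STAT proteins. Downstream of the type I receptor, Stat2 and Irf9 are parts of the complex ISGF3, which binds the interferon-stimulated response element (ISRE). STAT dimers formed after interferon gamma bind the gamma-activated site (GAS), and Irf1 is a classical gene switched on this way. Irf7 amplifies type I interferon production, and Socs1 closes the loop by inhibiting the kinases. In tumour macrophages the pathway is known for its part in antigen presentation and in the chemokines that attract T cells.

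The promoters of 4 members are shown, 3 of the 4 that hold a match to an interferon element (Stat2, Irf1 and Socs1, all lower in JHU083) and 1 with none (Ifngr1, higher in JHU083). The fourth with a match, Ifnar2, was higher in JHU083, and Irf7, with none, was lower. Each is the 250 bases before the RefSeq start in GRCm38.p6, written 5′ to 3′ on the gene's strand. Capitals mark matches to GAAANNGAAA for the ISRE or TTCNNNGAA for the GAS, searched on both strands. The windows are chr10:128270248-128270497, plus strand for Stat2, chr11:53769764-53770013, plus strand for Irf1, chr16:10785537-10785786, minus strand for Socs1 and chr10:19591699-19591948, plus strand for Ifngr1.
Stat2: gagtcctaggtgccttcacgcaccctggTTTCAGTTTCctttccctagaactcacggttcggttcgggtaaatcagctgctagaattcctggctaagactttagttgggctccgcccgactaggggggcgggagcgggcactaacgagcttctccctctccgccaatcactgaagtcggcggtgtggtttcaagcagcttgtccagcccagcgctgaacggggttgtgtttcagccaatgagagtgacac
Irf1: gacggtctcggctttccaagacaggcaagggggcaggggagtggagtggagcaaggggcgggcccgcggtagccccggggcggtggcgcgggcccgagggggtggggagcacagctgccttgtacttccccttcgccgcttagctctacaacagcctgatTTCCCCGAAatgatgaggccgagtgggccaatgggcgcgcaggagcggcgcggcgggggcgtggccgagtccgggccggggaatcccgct
Socs1: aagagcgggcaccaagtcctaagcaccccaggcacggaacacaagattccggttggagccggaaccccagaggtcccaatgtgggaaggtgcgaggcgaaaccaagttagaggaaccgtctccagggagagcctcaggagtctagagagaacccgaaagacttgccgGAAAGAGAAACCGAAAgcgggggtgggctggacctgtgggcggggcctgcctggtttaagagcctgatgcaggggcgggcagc
Ifngr1: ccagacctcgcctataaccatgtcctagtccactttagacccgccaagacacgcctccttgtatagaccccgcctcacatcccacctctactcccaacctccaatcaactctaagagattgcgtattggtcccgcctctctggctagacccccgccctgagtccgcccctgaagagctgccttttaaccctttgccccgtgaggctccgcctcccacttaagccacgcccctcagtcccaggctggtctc
The Stat2 window holds 1 ISRE match on the opposite strand, and the Socs1 window holds 2 that overlap. The Irf1 window shown holds 1 GAS match, ending 81 bases before the start, while the window of a second RefSeq start of Irf1 holds none, and a GAS match was also found in the Ifnar2 window, ending 205 bases before the start. All 9 members had a RefSeq window, and neither element was matched in those of Ifnar1, Ifngr1, Ifngr2, Irf9 and Irf7. Of 32851 RefSeq windows of this length, 2.98% held the ISRE letters and 7.02% the GAS letters. A match is a run of letters and does not show that a factor binds there.

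The libraries held 11147870 to 15740700 fragments, and macrophage markers were abundant: the 7 listed ones summed to 9454 to 12167 CPM in vehicle and 11674 to 14911 CPM in JHU083, and 3 of them (Adgre1, Csf1r and Mertk) were higher in JHU083. CPM are fragment counts relative to library size, after TMM scaling. Markers of other cells summed to less, but some differed between the groups. The 5 tumour epithelial markers summed to 261 to 549 CPM in vehicle and 93.4 to 194 CPM in JHU083, and all 5 were lower at an adjusted p under 0.05. The 4 fibroblast markers summed to 74.8 to 162 and 17.4 to 80.7 CPM, with 3 lower. Monocyte markers summed to 322 to 387 and 294 to 527 CPM (1 of 4 tested higher) and neutrophil markers to 76.6 to 94.5 and 80.0 to 104.7 CPM (2 of 4 tested lower, 1 higher). Eosinophil markers reached at most 17.4 CPM (1 of 3 tested higher), dendritic 14.5 (0 of 4 tested changed), T and NK 5.87 (0 of 1 tested changed) and B 0.60 (none tested). The plasmacytoid dendritic markers summed to 308 to 388 CPM in vehicle and 229 to 267 CPM in JHU083. Of them, Bst2, itself an interferon target, was lower; Tcf4 did not pass, and Siglech, Ccr9 and Klk1 had at most 22 fragments in any sample. No marker was at 0 in all samples; 4 (Camp, Ly6g, Klk1 and Ms4a1) had at most 3 fragments in any sample. The part of these shifts in the results below was not tested. In sorted bulk RNA, fewer cells of a type and less RNA per cell cannot be told apart.

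Of the 9 members, 2 were higher and 4 were lower in JHU083 by edgeR's quasi-likelihood test at a Benjamini-Hochberg adjusted p under 0.05, and 3 did not pass. Ifngr1 and Ifnar2 rose, Stat2, Irf1, Irf7 and Socs1 fell, and Ifnar1, Ifngr2 and Irf9 did not pass. The groups differed at many loci: 36.7% of the 12501 tested loci passed, 18.4% higher and 18.3% lower. Scaling to library size only turned the balance of all loci to 1564 higher and 3141 lower, from 2296 and 2293, while the 9 members kept their directions. The groups did not overlap for 6 members, 2 with all JHU083 samples above and 4 with all below; among all tested loci the shares were 22.3%, 11.2% and 11.1%. The median log2 fold change of the members was -0.12, against 0.01 over all tested loci.

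**Figure D1:**
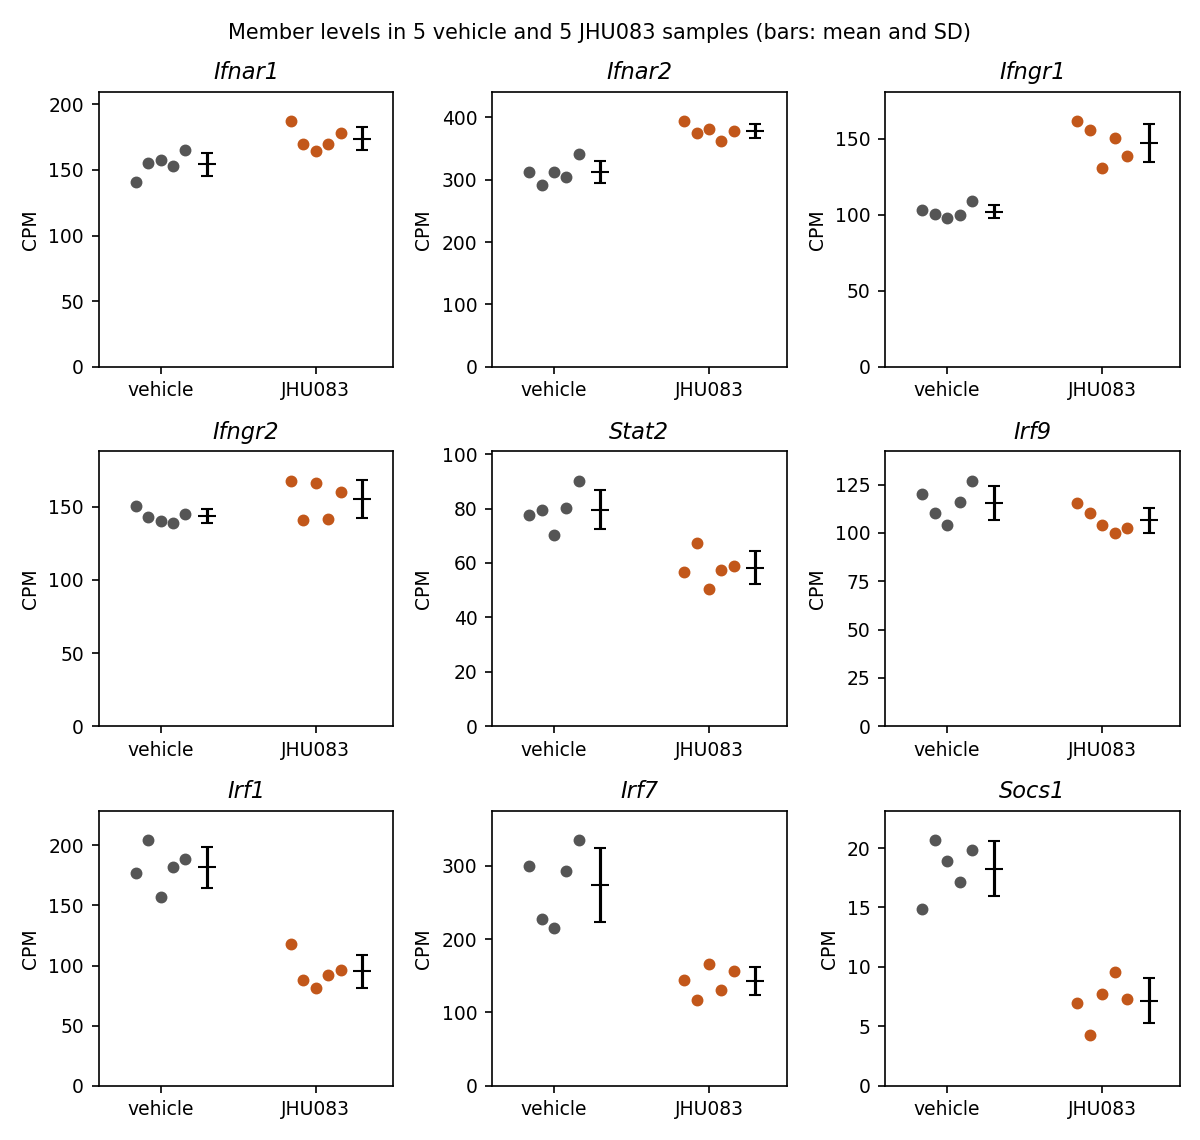
Level of each member (CPM, axis from 0) in the 5 vehicle and 5 JHU083 samples, with the mean and SD beside the points. The groups do not overlap for Ifnar2, Ifngr1, Stat2, Irf1, Irf7 and Socs1, and the largest fall as a ratio is that of Socs1, from 18.3 to 7.17 CPM.

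Among the receptor chains, the largest rise was that of Ifngr1 (XLOC_003382, chromosome 10, 19591949 to 19610229), the ligand-binding chain of the interferon gamma receptor. In vehicle replicates 1 to 5 it stood at 103, 100.1, 98.0, 99.8 and 109 CPM. In JHU083 replicates 1 to 5 it stood at 161, 156, 131, 150.1 and 138 CPM. Every JHU083 sample lay above every vehicle sample, and the vehicle samples were close together. On the log2 scale Ifngr1 rose by 0.53 ± 0.07 (SE, adjusted p = 0.000103), or 1.44-fold. Its partner Ifngr2, the chain needed for signalling (XLOC_014246, chromosome 16, 91547072 to 91565623) had a vehicle mean of 144 ± 4.66 CPM and a JHU083 mean of 155 ± 13.1 CPM (SD, n = 5). Of the JHU083 samples, replicates 1, 3 and 5 lay above all vehicle samples, at 168, 166 and 160.0 CPM, while replicates 2 and 4 lay within their range, at 141 and 142. The log2 fold change of Ifngr2 was 0.11 ± 0.07 (SE, adjusted p = 0.22), with a 95% interval of -0.02 to 0.25.

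For the type I receptor, Ifnar2 (XLOC_014243, chromosome 16, 91372783 to 91405589) encodes the chain that binds the ligand tightly. Its locus also lists Il10rb, a chain of the interleukin-10 receptor, and Gm21970, so its value covers all 3 genes. It stood at 313, 292, 312, 305 and 341 CPM in vehicle replicates 1 to 5. The JHU083 samples had 394, 374, 382, 362 and 378 CPM. The groups did not overlap, and the log2 fold change was 0.27 ± 0.06 (SE, adjusted p = 0.00374). Ifnar1 (XLOC_014245, chromosome 16, 91485238 to 91507441), the other chain, stood at 141, 155, 158, 153 and 165 CPM in vehicle and 187, 170.1, 165, 169.7 and 178 CPM in JHU083. Of the JHU083 samples 4 lay above all vehicle samples, and replicate 3 lay just below vehicle replicate 5. The log2 fold change was 0.17 ± 0.07 (SE, adjusted p = 0.0549), just short of the threshold. It passed with DESeq2 (0.17, adjusted p = 0.0344), with limma-voom and sample quality weights (0.19, adjusted p = 0.019), after correcting for GC and length (0.22, adjusted p = 0.0119) and without JHU083 replicate 3 (0.19, edgeR adjusted p = 0.0245), and it was 0.09 (adjusted p = 0.31) with library size only. Over its alternatives the adjusted p of Ifnar1 ran from 0.0119 to 0.421.

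Of the signal transducers, Stat2 (XLOC_004069, chromosome 10, 128270559 to 128292849), the STAT specific to type I and type III signalling, fell. It stood at 77.8, 79.4, 70.2, 80.3 and 90.2 CPM in vehicle replicates 1 to 5. In JHU083 it stood at 56.7, 67.4, 50.5, 57.3 and 59.1 CPM. The highest JHU083 sample, replicate 2, was still below the lowest vehicle sample, replicate 3. Its log2 fold change was -0.45 ± 0.09 (SE, adjusted p = 0.00155). Irf9 (XLOC_011405, chromosome 14, 55603571 to 55610030) encodes the DNA-contacting part of ISGF3, and its locus also lists Rnf31, a subunit of a ubiquitin ligase, so its value is the sum over both. It stood at 120.3, 110.2, 104, 116 and 127 CPM in vehicle and 116, 110.1, 104, 99.8 and 102 CPM in JHU083, and the groups overlapped. The log2 fold change of Irf9 was -0.12 ± 0.07 (SE, adjusted p = 0.227), with a 95% interval of -0.26 to 0.03.

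Irf1 and Irf7 lay at nearly 0.5 times their vehicle level. Irf1 (XLOC_005299, chromosome 11, 53770014 to 53778374), an activator of antigen-presentation genes, stood at 177, 204, 157, 182 and 188 CPM in vehicle replicates 1 to 5. In JHU083 the values were 118, 87.7, 81.1, 92.5 and 96.4 CPM. JHU083 replicate 1 was the highest of its group and still below the lowest vehicle sample, replicate 3. For Irf1 the log2 fold change was -0.93 ± 0.10 (SE, adjusted p = 1.58e-05), or 0.52-fold. Irf7 (XLOC_038266, chromosome 7, 141262706 to 141266481) stood at 299, 228, 215, 293 and 335 CPM in vehicle replicates 1 to 5. The JHU083 values were 144, 117, 166, 131 and 156 CPM. The vehicle samples spread widely, with replicates 2 and 3 below the other 3, and yet all lay above every JHU083 sample. For Irf7 the log2 fold change was -0.94 ± 0.13 (SE, adjusted p = 8.84e-05), or 0.52-fold. The alternative that moved Irf7 most was the GC and length correction, which gave -0.77 (adjusted p = 0.000144).

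Socs1 (XLOC_014347, chromosome 16, 10782240 to 10785536), the inhibitor, had the largest fitted fold change of the 9 members and the lowest counts. It had 197 to 271 fragments a sample in vehicle and 62 to 125 in JHU083. It stood at 14.9, 20.6, 18.9, 17.1 and 19.8 CPM in vehicle replicates 1 to 5. The JHU083 samples lay at 6.96, 4.25, 7.75, 9.56 and 7.33 CPM. The groups did not overlap, and JHU083 replicate 2 was the lowest. The log2 fold change was -1.35 ± 0.17 (SE, adjusted p = 5.17e-05), or 0.39-fold, and it was -1.15 (adjusted p = 0.000148) after the GC and length correction.

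**Figure D2:**
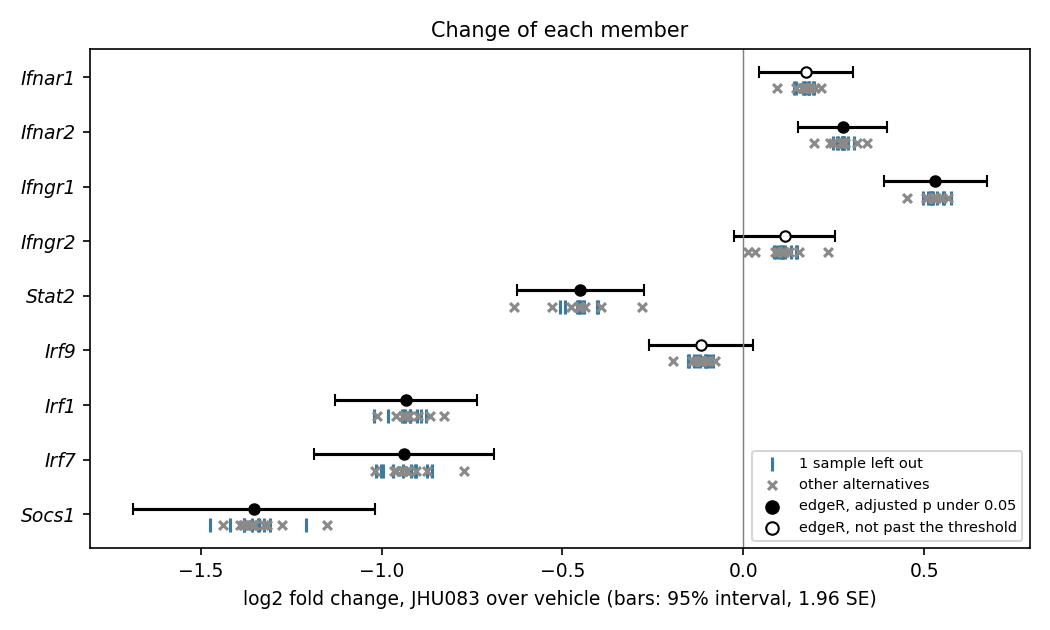
Log2 fold change of each member, JHU083 over vehicle, with its 95% interval (bars), and below it the value with each sample left out in turn and under the other alternatives. No alternative put a member on the other side of 0, and the filled points (adjusted p under 0.05) are those of Ifnar2, Ifngr1, Stat2, Irf1, Irf7 and Socs1.

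Rn18s-rs5 and Gm42418, a pair of loci with 2.38% to 4.64% (Rn18s-rs5) and 0.48% to 0.95% (Gm42418) of the fragments of 5 libraries, are both at 0 in the other 5 (3 of vehicle, 2 of JHU083), so the comparison was repeated within each set. Ifngr1, Irf1, Irf7 and Socs1 passed in both. Their log2 fold changes in the samples at 0 were 0.51, -0.94, -0.87 and -1.38 (edgeR adjusted p of 0.0383, 0.0104, 0.0154 and 0.00332). In the other samples they were 0.55, -0.87, -0.94 and -1.28 (adjusted p of 0.00724, 0.00067, 0.00227 and 0.00739). Stat2 was -0.63 (adjusted p = 0.0184) in the samples at 0 and -0.28 (adjusted p = 0.124) in the others, so it passed in the first set and not in the second; the difference between the sets was not tested. Ifnar2 passed in neither, at 0.31 (adjusted p = 0.124) and 0.24 (adjusted p = 0.143), with values near that of all samples. The members that did not pass over all samples did not pass here: Ifnar1 was 0.16 and 0.20, Ifngr2 0.23 and 0.01, and Irf9 -0.09 and -0.12 (adjusted p from 0.206 to 0.949).

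Whether 2 members changed unequally was asked from their log2 CPM difference within each library, for 5 pairs, with p-values adjusted over the 5. The smallest p this design allows is 0.0079. The interferon gamma receptor chains shifted against each other: Ifngr1 minus Ifngr2 was -0.49 ± 0.05 in vehicle and -0.08 ± 0.20 in JHU083 (SD, n = 5). The vehicle values ran from -0.55 to -0.42 and those of JHU083 from -0.35 to 0.15, so all 5 JHU083 samples lay above all vehicle samples, and the shift was 0.42 ± 0.09 (SE, exact two-sided permutation p = 0.0079, adjusted p = 0.0132). For the type I receptor, Ifnar1 minus Ifnar2 was -1.02 ± 0.09 in vehicle and -1.12 ± 0.06 in JHU083 (SD, n = 5), a shift of -0.10 ± 0.05 (SE, exact two-sided permutation p = 0.0635, adjusted p = 0.0794), which did not pass; without vehicle replicate 1 it did, at -0.14 (exact permutation adjusted p = 0.0198), and on the deposited FPKM it was -0.04 (exact permutation adjusted p = 0.5159). On the FPKM the shift of Ifngr1 minus Ifngr2 was 0.28 (exact permutation adjusted p = 0.0397). The Ifnar2 locus also lists Il10rb and Gm21970, so Ifnar1 minus Ifnar2 is not a difference of the 2 chains alone.

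Both ISGF3 parts were also compared. Stat2 minus Irf9 was -0.54 ± 0.06 in vehicle and -0.87 ± 0.15 in JHU083 (SD, n = 5), a shift of -0.34 ± 0.07 (SE, exact two-sided permutation p = 0.0079, adjusted p = 0.0132). Irf7 minus Irf9 was 1.23 ± 0.17 in vehicle and 0.42 ± 0.23 in JHU083 (SD, n = 5), a shift of -0.81 ± 0.13 (SE, exact two-sided permutation p = 0.0079, adjusted p = 0.0132). In both pairs all 5 JHU083 samples lay below all vehicle samples. The 5 pairs were chosen with earlier results of these data known. How often pairs of other loci separate was not computed. The Irf9 locus also lists Rnf31. Irf1 minus Irf7 was -0.58 ± 0.27 in vehicle and -0.59 ± 0.29 in JHU083 (SD, n = 5), a shift of -0.01 ± 0.18 (SE, exact two-sided permutation p = 0.9683, adjusted p = 0.9683). That last pair overlapped widely, and its error leaves room for unequal changes of either sign.

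**Figure D3:**
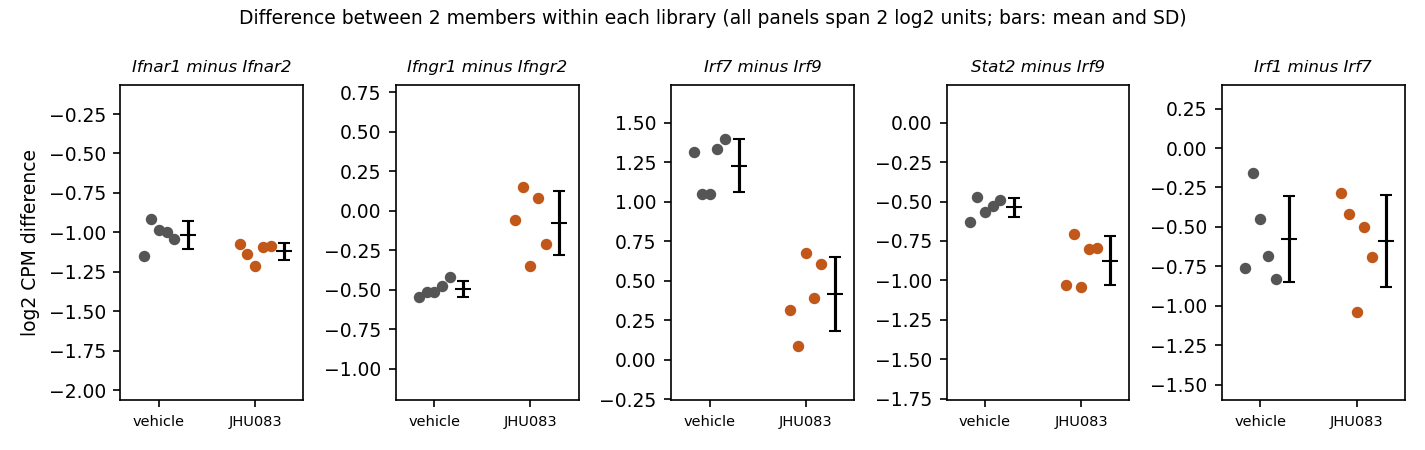
Difference in log2 CPM between 2 members within each library, by group, with the mean and SD beside the points; every panel spans 2 log2 units. The groups separate for Ifngr1 minus Ifngr2, Irf7 minus Irf9 and Stat2 minus Irf9, and they overlap for the other 2 pairs.

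Levels of different genes can be compared only per length, and for this the deposited FPKM were used. Their ratio to CPM was not constant within a gene: it ran from 0.30 to 0.44 over the samples for Ifngr2, while for each other member the highest ratio was at most 1.1 times the lowest, so the place of Ifngr2 in the order is less certain than that of the others. In vehicle the order from the highest was Ifnar2 at 210.0 ± 10.3 FPKM, Irf7 at 152 ± 28.8, Irf1 at 90.4 ± 8.55, Ifngr1 at 51.2 ± 2.43, Ifngr2 at 50.3 ± 5.21, Irf9 at 43.8 ± 4.69, Ifnar1 at 40.4 ± 2.32, Stat2 at 17.4 ± 1.55 and Socs1 at 16.7 ± 2.17 (SD, n = 5). The ranges of neighbours overlapped from Ifngr1 down to Ifnar1, and those of Stat2 and Socs1 overlapped. In JHU083 Irf1 moved from the third place to the fifth, at 48.1 ± 7.04 FPKM, below Ifngr1 (74.4 ± 7.00) and Ifngr2 (59.8 ± 3.30), although its range overlapped those of its neighbours Ifngr2 and Ifnar1. Irf7 kept the second place at 81.1 ± 10.7 FPKM, now with a range that overlapped that of Ifngr1, and Ifnar2 stood at 248 ± 8.70. Ifnar1 (46.4 ± 2.74) now stood above Irf9 (41.0 ± 2.31), with overlapping ranges, and Stat2 (12.8 ± 1.41) and Socs1 (6.57 ± 1.73) no longer overlapped. The FPKM of Ifnar2 and Irf9 are those of loci that list other genes too.

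Within a group, the members did not vary as one. Deviations of each sample from its own group's mean were correlated between members over the 10 samples, and r exceeded 0.6 for 4 of the 36 pairs: Ifnar2 with Irf9 (r = 0.68), Ifngr1 with Irf9 (0.66), Ifngr1 with Stat2 (0.66) and Ifngr2 with Irf7 (0.61). Spearman's rho was 0.68, 0.61, 0.35 and 0.59 for these pairs, and it also exceeded 0.6 for Ifnar2 with Ifngr2 (rho = 0.72, r = 0.46), Ifnar1 with Irf1 (rho = 0.68, r = 0.57) and Ifnar2 with Irf7 (rho = 0.66, r = 0.60), so the set of pairs depends on the measure. The highest and lowest r of the 4 pairs with 1 sample left out were 0.84 and 0.47, 0.80 and 0.54, 0.85 and 0.45, and 0.68 and 0.47. The share of pairs of other loci with r over 0.6 was not computed. The loci of Ifnar2 and Irf9 list other genes too. For Irf7 the correlation was 0.54 with Irf9, 0.09 with Irf1 and 0.04 with Stat2. With 1 sample left out these ran from 0.32 to 0.72, from -0.22 to 0.35 and from -0.31 to 0.46, so the sign of the last 2 turned with single samples. Among 9464 other loci of 1 symbol, those whose deviations were most like those of Irf7 were Aldoa (r = 0.97), Atp13a1 (0.97), Atp6ap1 (0.97), Tpi1 (0.96) and Fam219b (0.96). Aldoa and Tpi1 encode glycolytic enzymes. After the GC and length correction these were 0.94, 0.98, 0.56, 0.92 and 0.94. Most like Irf1 were Serpinb8 (0.94), Nfyb (0.90), Gbp3 (0.90), Tgif1 (0.90) and Ap1s3 (0.88), and after the correction 0.78, 0.73, 0.83, 0.84 and 0.66. Gbp3 is an interferon-induced GTPase. In JHU083 Serpinb8 and Tgif1 were higher (log2 fold changes of 0.66 and 0.26), Gbp3 was lower (-0.40), and Nfyb and Ap1s3 did not pass. These are the highest of 9464 loci over 10 samples, so the ranking itself raises r, and no chance level was computed. All of these values share the same 10 libraries and their depth and base composition.

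The interferon genes themselves could not be compared. Of 21 ligand genes none reached the level needed for testing, and none had more than 6 fragments in any sample. Ifnb1, interferon beta, had at most 6 fragments and was seen in 9 of 10 samples, and Ifng, interferon gamma, at most 5 and in 8 of 10. For the 15 ligands with 0 fragments in all samples, 3 fragments in the shallowest library would be 0.27 CPM, which is the limit that a count of 0 allows for counting error.

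Of the kinases that the receptors use, Jak1, shared by both receptors, rose from 204 ± 14.7 to 269 ± 22.8 CPM (SD, n = 5; log2 fold change 0.40 ± 0.08, SE, adjusted p = 0.00133). Jak2 and Tyk2 did not pass, with log2 fold changes of -0.01 (adjusted p = 0.969) and -0.11 (adjusted p = 0.262). Among 4 other STATs reported, 0 were higher and 1 was lower, beside 18.4% and 18.3% of all tested loci: Stat5a went from 21.7 ± 1.71 to 17.6 ± 2.24 CPM (SD, n = 5; log2 fold change -0.30 ± 0.10, SE, adjusted p = 0.0348). Stat3, Stat5b and Stat6 had 0.18 (adjusted p = 0.0638), 0.01 (adjusted p = 0.953) and 0.10 (adjusted p = 0.209). After the GC and length correction 2 of these 4 STATs were higher (Stat3 at 0.22 and Stat6 at 0.21, limma adjusted p of 0.00374 and 0.0105) and Stat5a was -0.12 (adjusted p = 0.364). Stat5a kept its call in 14 of 25 alternatives, and leaving out vehicle replicate 1, 2 or 5 or JHU083 replicate 3 or 5 ended it. Among 4 other IRFs reported, 1 was higher and 0 were lower, beside the same shares of all tested loci. That was Irf4, known in macrophages for its part in alternative activation, which rose from 8.91 ± 2.52 to 19.5 ± 6.01 CPM (SD, n = 5; log2 fold change 1.13 ± 0.22, SE, adjusted p = 0.00123). Irf2, Irf3 and Irf5 had -0.03 (adjusted p = 0.808), -0.05 (adjusted p = 0.769) and -0.07 (adjusted p = 0.645). Jak1 and Irf4 did not pass within the samples with Rn18s-rs5 and Gm42418 at 0 and kept their calls in the other 24 of 25 alternatives. Il10ra, the only related receptor chain tested apart from the member loci, had -0.01 (adjusted p = 0.953), and Ifnlr1 had at most 9 fragments.

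Of 12 other negative regulators, 4 were higher and 2 were lower, with a median log2 fold change of 0.06, beside 18.4% higher and 18.3% lower over all tested loci. The number higher was 1 without vehicle replicate 1, with library size only, with no filter and with the replicate block, 0 in the samples with Rn18s-rs5 and Gm42418 at 0, and 1 to 4 with any 1 sample left out. The largest rises were those of Pias2, from 33.8 ± 3.31 to 46.9 ± 4.07 CPM (SD, n = 5; log2 fold change 0.47 ± 0.09, SE, adjusted p = 0.0012), and Pias1 at 0.27 (adjusted p = 0.0207). Both belong to the PIAS proteins, which bind STATs, and the other PIAS genes, Pias3 at 0.07 (adjusted p = 0.673) and Pias4 at -0.20 (adjusted p = 0.183), did not pass. The remaining rises past the threshold were those of the phosphatases Ptpn2 at 0.21 (adjusted p = 0.0398) and Ptpn1 at 0.20 (adjusted p = 0.0349), which kept their calls in 10 and 13 of 25 alternatives. Pias2 lost its call within the samples with Rn18s-rs5 and Gm42418 at 0. The 2 that fell were Usp18, which blocks signalling at Ifnar2 and is itself interferon-induced, from 30.7 ± 4.63 to 20.1 ± 1.93 CPM (SD, n = 5; log2 fold change -0.62 ± 0.11, SE, adjusted p = 0.000758), and the phosphatase Ptpn6 at -0.33 (adjusted p = 0.0454). Pias1 kept its call in 17 and Ptpn6 in 12 of 25 alternatives. After the GC and length correction Pias1 was 0.11 (limma adjusted p = 0.298), Ptpn2 0.06 (adjusted p = 0.536) and Ptpn6 -0.16 (adjusted p = 0.191), while Ptpn1 at 0.33 (adjusted p = 0.00145) was larger and Socs3 at 0.27 (adjusted p = 0.00501) gained a call, from 0.06. The replicate block ended the calls of Pias1, Ptpn2, Ptpn6 and Ptpn1. Leaving out vehicle replicate 1 or JHU083 replicate 2 or 5 ended the call of Pias1, and so did leaving out any 1 sample other than vehicle replicates 2 and 3 and JHU083 replicate 3 for Ptpn6. Of 14 sensors and adaptors upstream of interferon production, 2 were higher and 4 were lower, with a median of -0.07; these are 14.3% and 28.6%, beside 18.4% and 18.3% over all tested loci. Tlr7, an endosomal receptor for single-stranded RNA, rose from 38.8 ± 3.46 to 85.4 ± 12.1 CPM (SD, n = 5; log2 fold change 1.14 ± 0.10, SE, adjusted p = 4.78e-06), and the kinase Tbk1 rose by 0.41 (adjusted p = 0.0032). Dhx58, a regulator of the RNA sensors, fell from 65.0 ± 10.3 to 36.4 ± 4.59 CPM (SD, n = 5; log2 fold change -0.84 ± 0.12, SE, adjusted p = 0.000117), and the nucleic acid sensor Zbp1 had -0.68 (adjusted p = 4.35e-05). Of the other falls past the threshold, the adaptor Myd88 had -0.36 (adjusted p = 0.00539) and the adaptor Tmem173 -0.19 (adjusted p = 0.0427), and Tmem173 kept its call in 11 of 25 alternatives. After the GC and length correction Tmem173 lost its call, at -0.11 (limma adjusted p = 0.216), and Ddx58 at -0.31 (adjusted p = 0.0186) and Ticam1 at 0.30 (adjusted p = 0.0323) gained one. Tbk1 and Myd88 lost theirs within the samples with Rn18s-rs5 and Gm42418 at 0.

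The listed targets went mostly one way, but the lists were chosen with earlier results of these data known. No list was tested, so the counts are a description. Of 20 genes of the ISRE type, 0 were higher and 13 were lower, with a median log2 fold change of -0.53, against 18.3% lower and a median of 0.01 over all tested loci. The largest falls were those of Isg15, a ubiquitin-like protein, from 73.5 ± 14.1 to 31.1 ± 4.51 CPM (SD, n = 5; log2 fold change -1.24 ± 0.13, SE, adjusted p = 1.60e-05), and Oas3, a sensor of double-stranded RNA, at -1.01 (adjusted p = 3.87e-05). Of 16 tested loci of the interferon gamma type, 0 were higher and 13 were lower, with a median of -0.63. The largest falls were those of the chemokines Cxcl10, from 41.1 ± 8.31 to 11.9 ± 4.14 CPM (SD, n = 5; log2 fold change -1.79 ± 0.21, SE, adjusted p = 2.78e-05), and Cxcl9 at -1.64 (adjusted p = 0.000932). Igtp and Irgm2 share 1 locus there, Gbp4 shares one with Gbp8 and Gbp9, and Ido1 was too low to test. Within the samples with Rn18s-rs5 and Gm42418 at 0, 6 and 8 of the 2 lists were lower, and within the others 5 and 11. After the GC and length correction 14 ISRE-type genes (with Ifit2 gained, at -0.41, limma adjusted p = 0.0157) and 13 interferon gamma-type loci were lower, and in the second list Icam1, an adhesion molecule, was higher at 0.35 (limma adjusted p = 0.00214).

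**Figure D4:**
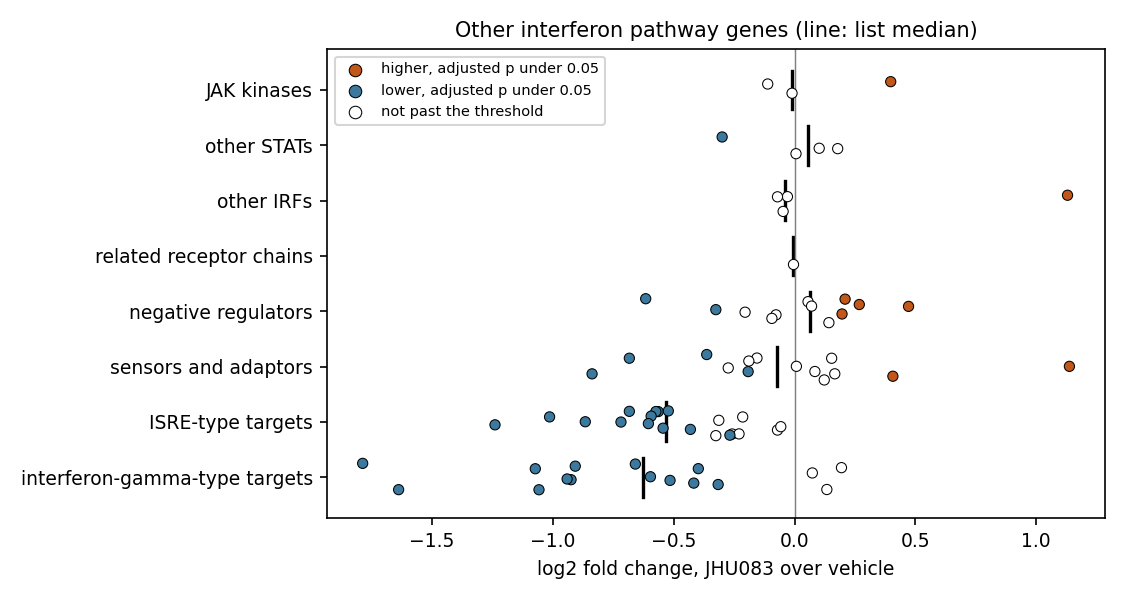
Log2 fold change (JHU083 over vehicle) of each tested locus of the interferon lists, coloured by its edgeR call, with the list median as a line. The medians of the 2 target lists lie at -0.53 and -0.63, and those of the kinases, the other STATs, the other IRFs and the negative regulators lie within 0.07 of 0.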

How the data were processed

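Gene expression was measured by RNA sequencing of polyadenylated RNA in 5 vehicle and 5 JHU083 samples, grouped by their titles. Per the submitters' processing notes, bcl2fastq, FastQC 0.11.2, TopHat2 2.1.1 and the build GRCm38 were used; the counting program and annotation are not given in the sources used here. The authors deposited 2 columns per sample. The deposited column headed as raw counts was treated as holding expected counts, since its values are not whole and how the authors made it is not stated. In it 99.5% to 99.9% of positive values were whole multiples (tolerance 0.05) of a step of 0.888 to 1.17 that differs by sample. They were divided by that step and rounded to fragments; that these are the counted fragments is inferred from the values alone. The other deposited column was read as FPKM from its values and used only for levels between genes and 1 alternative.

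Of the 46957 loci, 1060 list more than 1 symbol. Loci were filtered with filterByExpr and normalised with TMM, and the 2 groups were compared in edgeR 4.0.16 (R 4.3.3) with its quasi-likelihood test, without covariates, with Benjamini-Hochberg adjustment over all tested loci at 0.05. Single-gene adjusted p-values are from this fit unless another is named. The SE is the absolute log2 fold change over the square root of F, and 95% intervals use the normal quantile. Log2 CPM have a prior count of 2. Pairs of members were compared by exact permutation over all relabellings of the samples (scipy 1.17.1). Both tests were tested on simulated data. Gene positions are those of GENCODE M21 (GRCm38). The comparison was repeated with limma-voom (limma 3.58.1), plain or with quality weights, with DESeq2 1.42.0, and with other scalings and filters, the deposited values rounded, the 2 loci at 0 (left out, as covariate, within sets), each sample left out and the replicate number as a block. The correction for GC content and length (mgcv 1.9.3, for 97.5% of tested loci, then limma) was added after seeing the data.

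The members, lists and tests were chosen with earlier results of these data known. Named genes are all members, every tested gene of lists of up to 6, the 2 largest rises and falls past the threshold of longer lists, and the 5 loci most like Irf7 and Irf1 among those with an average log2 CPM of at least 2. Ptpn1, Ptpn2, Pias3, Pias4, Socs3, Myd88, Tmem173, Ddx58, Ticam1, Ifit2, Icam1, Ifnb1 and Ifng fall outside this rule and were named after their values were seen, as were marker genes and genes named for a shared locus or for being too low to test. Irf8 was not analysed here, and some genes of the lists are not reported here.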

Additional observations from a re-analysis of the deposited data

How the results depend on the processing

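Of 225 log2 fold changes of the members under alternatives, 218 kept direction and call, 3 lost the call (Ifnar2 within both sets by the loci at 0, Stat2 within the set with these loci present) and 4 gained it, all for Ifnar1. Members lower numbered 3 or 4 throughout, and members higher 2 or 3, except 1 in each of these 2 sets. Over all loci, 532 were higher and 586 lower in the samples at 0, and 1274 were higher in the others; these sets hold fewer samples. The genes of the lists that were higher, 8 in all, became 5 with library size only, with no filter and with the replicate block, and 1 in the samples at 0; with 1 sample left out they ranged from 5 (without vehicle replicate 1) to 11. Those lower, 33 in all, became 17 and 20 within the 2 sets and 28 to 32 with 1 sample left out. The cause of the changes under other scalings and filters was not tested. With 1 sample left out, Ifnar1 minus Ifnar2 ranged from -0.136 to -0.0772 and Irf1 minus Irf7, which never passed, from -0.0844 to 0.103. With library size only, the correlation of deviations of Irf7 with Stat2 was -0.0435 and that with Irf9 was 0.36.

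The labels number samples 1 to 5 in both groups. The 5 same-numbered pairs had correlations of deviations over the 1000 most variable loci that lay between -0.61 and -0.18. Same-numbered samples thus did not deviate alike. In each same-numbered pair, 1 sample had Rn18s-rs5 and Gm42418 at 0 and the other did not. Whether the numbers follow a shared processing step was not tested. With the replicate block 1612 loci were higher and 1757 lower, and all 6 member calls held. Exact sign-flip tests with the replicate block cannot pass with 5 pairs (adjusted p = 0.1042 for the 3 pairs of members that passed without it); the differences were 0.42 for Ifngr1 minus Ifngr2, -0.81 for Irf7 minus Irf9 and -0.34 for Stat2 minus Irf9. Lengths are not in the files, so the levels were not recomputed from fragments. A count of 0 allows up to 0.27 CPM in the shallowest library.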
